A study of Mus musculus with 3 samples.

Results

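Vascular fibroblasts and pericytes of the postnatal cerebellum were described here as 101 of the 3425 cell barcodes that held at most 10% UMIs of mitochondrial (mt-) genes. Each UMI (unique molecular identifier) marks an RNA molecule that was caught. No minimum of UMIs per barcode was set. Of the 3425 barcodes, 1017 held fewer than 500 UMIs, the limit below which the study left barcodes out. These were 21 of the 101 and 996 of the others. The 101 members were selected on measured values: summed UMIs of Dcn, Col3a1, Col1a1, Col1a2, Rgs5 and Vtn of at least 4, at least 2 of these 6 genes seen, and fewer than 2 summed UMIs of the muscle genes Actc1, Mylpf and Myh3. The levels of these 9 genes in the members are therefore a description, and no test was made on them. The libraries came from 3 mice at postnatal day 7, each labelled Math1-Cre/Eed fl/fl (Eed cKO) and untreated. In these mice Cre recombinase under the Math1 (Atoh1) promoter deletes Eed, a core subunit of the chromatin repressor PRC2, in cerebellar granule neuron progenitors (CGNPs), a lineage that does not give rise to fibroblasts or pericytes. Brains were cut at the midline, and the cerebellar tissue of 1 side was dissociated with papain and run through Drop-seq, which counts RNA from its 3' end in droplets. All 3 mice carried the same genotype and no other genotype was analysed here, so every comparison below is between barcodes of the same mice.

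Blood vessels of the brain are wrapped by mural cells. Pericytes, which sit in the basement membrane of capillaries, contact the endothelial tube along its length, depend on PDGF-B signalling through Pdgfrb, and carry an ATP-sensitive potassium channel built from Kcnj8 and Abcc9. Smooth muscle cells of arterioles are the contractile mural cells and make Acta2, Tagln and Myh11. Fibroblasts lie outside the mural layer of larger vessels and in the meninges, secrete fibrillar collagens and small proteoglycans such as decorin (Dcn) and lumican (Lum), and release growth and guidance factors including Igf2 and Cxcl12.

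Mouse 1 gave 44 members, mouse 2 gave 23 and mouse 3 gave 34, and no cell barcode was shared between libraries. These were 3.20%, 2.49% and 3.02% of the barcodes of mice 1, 2 and 3, with 95% exact binomial intervals of 2.34 to 4.28%, 1.58 to 3.71% and 2.10 to 4.19%, and a mean of 2.90 ± 0.370% (SD, n = 3). Intervals and limits given here cover counting error only. The members held 139143 UMIs in all, 40526, 22058 and 76559 in mice 1, 2 and 3, with a median of 931 per barcode, against a median of 748 in the 3324 remaining barcodes. All used barcodes together held 1235120, 706203 and 1726080 UMIs in mice 1, 2 and 3. At the edge of the rule, 5 members had exactly 4 UMIs of the 6 genes, and 2 barcodes with 3 UMIs from at least 2 genes fell just outside. A further 11 barcodes had 4 or more UMIs of a single gene, which was Rgs5 in 10 of them, and stayed outside. Of the 3324 remaining barcodes, 3124 had none of the 6 genes and 159 had 1 UMI. The muscle clause removed 0 barcodes.

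The label was checked against markers that the rule did not use. Lum and Pdgfra, markers of fibroblasts, had 58 and 17 UMIs in the members, and Kcnj8, Abcc9, Higd1b, Pdgfrb and Notch3, markers of pericytes, had 46, 42, 58, 20 and 13. All 7 had UMIs in the members of at least 2 mice. Of the smooth muscle genes, Tagln had 1 UMI and Myh11 had 0 in 139143, while Acta2 had 20 and Myl9 had 51. The 4 smooth muscle markers summed to 642, 1133 and 274 CPM in the members of mice 1, 2 and 3 and to 60.3, 40.9 and 40.0 CPM in the remaining barcodes. Olig1, Olig2 and Sox10 of the oligodendrocyte lineage, C1qa, C1qb, C1qc and Csf1r of myeloid cells, and Atoh1 and Pax2 of neuronal progenitors were at 0 in the members, while Neurod1 of granule neurons had 13 UMIs and the globin gene Hbb-bs had 25.

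Members were split by Rgs5 into 2 subsets whose summed matrix UMIs overlapped and which differed most plainly in Dcn (plot of Rgs5 against matrix UMIs). Rgs5, a regulator of G protein signalling and a pericyte marker, was seen in 37 members, and 64 members had no Rgs5 UMI. Among the Rgs5-positive members Rgs5 ranged from 2 to 71 UMIs with a median of 14, and none had a single UMI. Dcn was seen in 61 of the 64 Rgs5-zero members and in 0 of the 37 Rgs5-positive members, which allows up to 8.11% of such barcodes to hold a UMI and does not limit the share of cells that express Dcn. Median depths over all mice were close, 953 UMIs in Rgs5-zero and 914 in Rgs5-positive members. Within mice 1, 2 and 3 they differed more and not in 1 direction, at 892.5, 553.5 and 1744 against 687.5, 1101 and 1451 UMIs. With every barcode of at least 500 UMIs thinned to 500, Dcn was seen in 89.8% of 49 Rgs5-zero and in 0.00% of 31 Rgs5-positive members. Since both genes belong to the rule, these shares describe the members and test nothing. Thinning left out 15 Rgs5-zero and 6 Rgs5-positive members with fewer UMIs. Summed Dcn, Col3a1, Col1a1 and Col1a2 ranged from 2 to 199 UMIs with a median of 11.5 in Rgs5-zero members, and from 0 to 10 with a median of 1 in Rgs5-positive ones. Col1a1 was seen in 21 and Col3a1 in 13 of 37 Rgs5-positive members, against 48 and 56 of 64 Rgs5-zero members. A member without Rgs5 needs UMIs of these matrix genes or Vtn to meet the rule, so part of that gap comes with the selection, whereas the rule does not require Dcn to be missing where Rgs5 is seen. Vtn, which encodes vitronectin, was seen in 29 of 37 Rgs5-positive and 49 of 64 Rgs5-zero members, and after thinning in 45.2% and 59.2%. An Rgs5-positive barcode without matrix UMIs must hold Vtn to be a member, so nothing is read from these shares. The 3324 remaining barcodes together held 20 Vtn UMIs and 17 Dcn UMIs, and 189 of Rgs5.

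Summed over the members of mice 1, 2 and 3, Dcn counted 152, 112 and 151 UMIs, Vtn 71, 48 and 114, and Rgs5 158, 66 and 473. The collagens, which form the fibrils of loose connective tissue, counted 86, 63 and 218 UMIs of Col3a1, 66, 58 and 215 of Col1a1, and 70, 96 and 271 of Col1a2. Mouse 3 gave the most UMIs of every rule gene but Dcn, for which mouse 1 had 1 more.

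**Figure D1:**
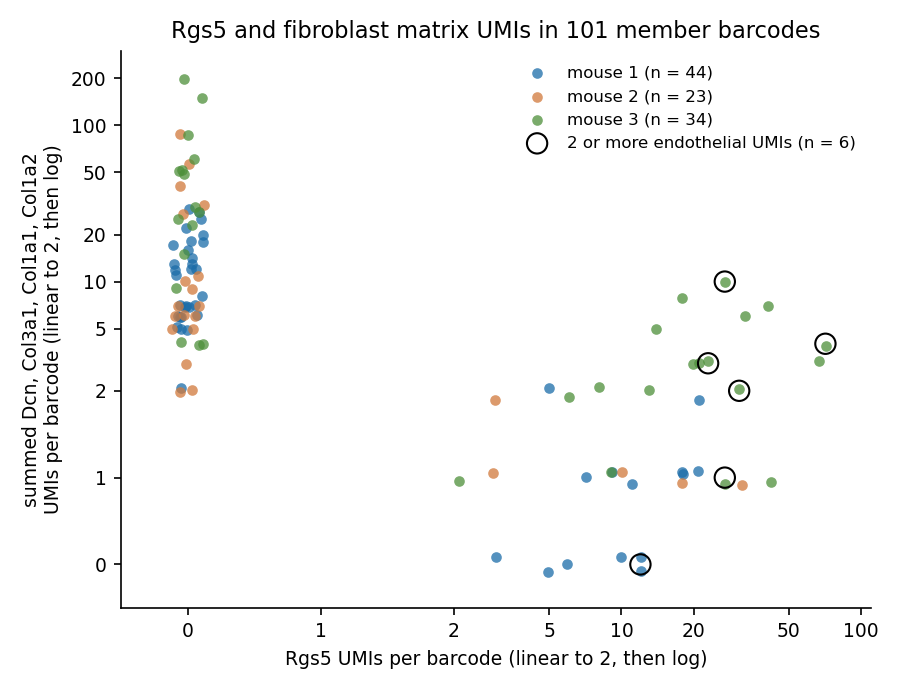
Each point is 1 of the 101 members, coloured by mouse, with Rgs5 UMIs on the x axis and summed Dcn, Col3a1, Col1a1 and Col1a2 UMIs on the y axis, both linear to 2 and logarithmic above, with a small jitter. The 64 Rgs5-zero members stand in a column at 2 to 199 matrix UMIs, the 37 Rgs5-positive members lie at 0 to 10, and circles mark the 6 members with 2 or more UMIs of Cldn5, Flt1, Pecam1, Ly6c1 and Slco1a4.

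Rgs5-positive members made up 31.8%, 21.7% and 52.9% of the members of mice 1, 2 and 3 (14, 5 and 18 barcodes), a mean of 35.5 ± 15.9% (SD, n = 3). The exact intervals were 18.6 to 47.6%, 7.46 to 43.7% and 35.1 to 70.2% and overlapped between all 3 mice. Mouse 2 gave only 5 Rgs5-positive barcodes with 6232 UMIs, against 11702 in mouse 1 and 47037 in mouse 3.

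Of the Rgs5-positive members, 6 also carried endothelial RNA, and 5 of the 6 came from mouse 3. These 6 had 2 or more summed UMIs of Cldn5, Flt1, Pecam1, Ly6c1 and Slco1a4, 91 members had none and 4 had 1. The 1 from mouse 1 had 1954 UMIs in all and 4 endothelial UMIs. The 5 from mouse 3 held 2610 to 9079 UMIs each with 9 to 46 endothelial UMIs, and supplied 68.7% of the Rgs5-positive UMIs of that mouse. The median depth of the 6 was 5831 UMIs, against 749 in the other 31 Rgs5-positive members. Whether each is 1 cell or a pericyte and an endothelial cell under 1 barcode was not tested. Doublets were not called, and the main counts are given with and without these 6 barcodes. Without them Rgs5-positive members were 30.2%, 21.7% and 44.8% of the members of mice 1, 2 and 3. Cldn5, the tight junction claudin of brain endothelium, had 1, 0 and 113 UMIs in the members of mice 1, 2 and 3, and 0 in all 3 once the 6 were left out.

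**Figure D2:**
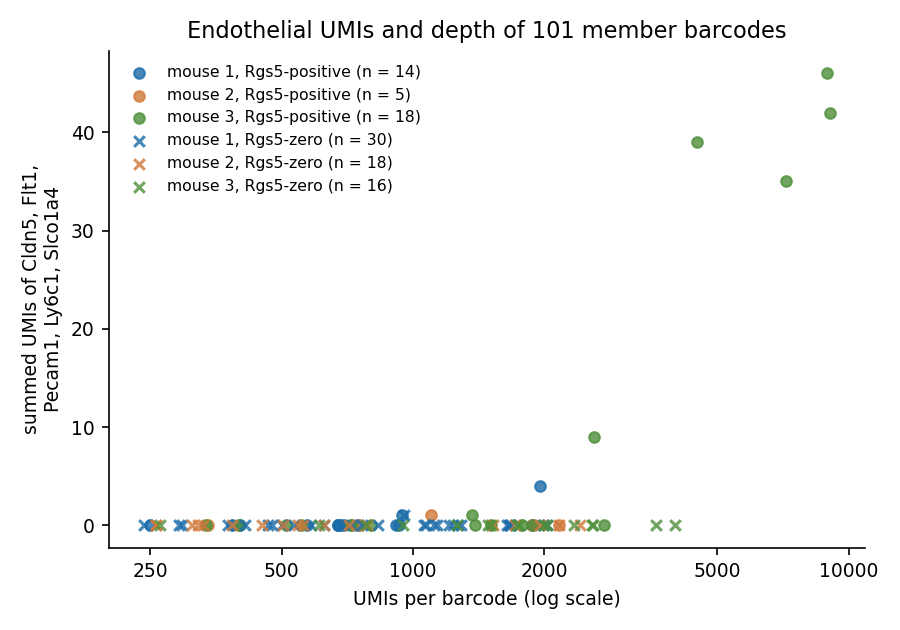
Summed UMIs of Cldn5, Flt1, Pecam1, Ly6c1 and Slco1a4 (y axis) against all UMIs of the barcode (x axis, log scale) for the 101 members, coloured by mouse, with circles for Rgs5-positive and crosses for Rgs5-zero members. The 5 high barcodes of mouse 3 reach 9 to 46 endothelial UMIs at 2610 to 9079 UMIs, while no Rgs5-zero member has more than 1.

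Compared with the remaining barcodes of the same mice, the members were higher in the genes of the vessel wall and its matrix and lower in genes of neurons, muscle and blood. Each mouse gave 1 sum of UMIs per group, and the 3 sums against 3 were tested over 6679 genes with edgeR's quasi-likelihood test, without the 9 genes of the rule. At an adjusted p under 0.05, 546 genes (8.17%) were higher and 620 (9.28%) were lower in the members. Of the 620, 142 had 0 UMIs in the members. Without the 6 barcodes with endothelial RNA the counts were 484 and 500 of 6490 genes, and 437 of the 484 were also among the 546. With UMIs of Itm2a counted as endothelial too, more members were left out. The counts were then 313 and 392 of 6558 genes, with 287 and 306 shared with the 546 and 620. The count of lower genes fell to 181, 311 and 296 without mouse 1, 2 or 3. Levels are given as CPM (UMIs per 1000000, by group) and differences as log2 fold changes. The median log2 fold change over all 6679 genes was -0.28. A gene can pass the filter on low counts through the group in which it is high, so the counts for gene lists below describe the genes that were tested, and not whole lists. Without the 6 barcodes with endothelial RNA, 13 of 14 tested matrix proteoglycan genes, 7 of 9 collagen folding genes, 8 of 10 protease and inhibitor genes, 26 of 29 fibroblast and meningeal genes and 12 of 20 signalling genes were higher, against the counts given below.

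**Figure D3:**
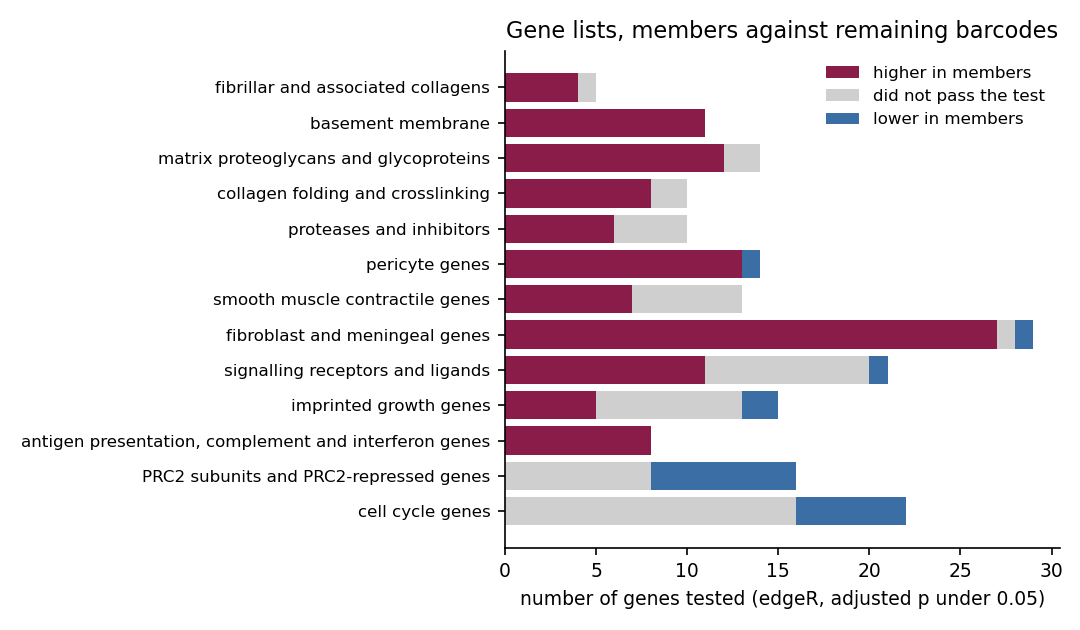
Number of genes tested in each of 13 gene lists (x axis), split into genes higher in the members, genes that did not pass the test and genes lower in the members (edgeR, adjusted p under 0.05, 3 mice). All 11 tested basement membrane genes and all 8 tested antigen presentation, complement and interferon genes were higher, and no PRC2 or cell cycle gene was.

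Basement membrane genes were higher in the members without exception among the 11 of 15 that could be tested, with a median log2 fold change of 4.47. Col4a1, which encodes the main collagen chain of vascular basement membranes, was at 2097, 2403 and 2207 CPM in the members of mice 1, 2 and 3 and at 48.6, 39.5 and 27.9 CPM in the remaining barcodes. The groups did not overlap, and the 3 mice differed little (log2 fold change 5.76, SE 0.29, adjusted p = 1e-12). Col4a2, its partner chain, was at 666, 317 and 862 CPM against 29.3, 20.5 and 10.9 CPM (log2 fold change 5.0, SE 0.40, adjusted p = 1e-09). Nid2, a nidogen that links the collagen and laminin networks, and Col4a5, another type IV chain, were higher by log2 fold changes of 6.00 and 5.26. Of the 45 Col4a5 UMIs in the members, 44 came from Rgs5-zero barcodes, whereas Col4a1 and Col4a2 were counted in both subsets, with 144 and 49 UMIs in Rgs5-positive and 163 and 51 UMIs in Rgs5-zero members. The difference between the subsets was not significant for Col4a1 (log2 fold change 0.16, SE 0.31, adjusted p = 0.84) or Col4a2 (0.10, SE 0.49, adjusted p = 0.94).

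Because Col4a1 and Col4a2 were high in both subsets, the stretch from which both are transcribed is shown. The genes lie head to head on chromosome 8, Col4a1 on the minus strand from 11198423 to 11312826 and Col4a2 on the plus strand from 11312805 to 11449287 (GENCODE M21 on GRCm38). The 300-base windows below, from RefSeq on GRCm38.p6, run from 250 bases before to 50 bases after the start of each gene, 5' to 3' on its own strand, at chr8:11312777-11313076 for Col4a1 and chr8:11312555-11312854 for Col4a2, and share 78 bases. Capitals mark the CCAAT pentamer in either orientation (CCAAT or ATTGG).
Col4a1: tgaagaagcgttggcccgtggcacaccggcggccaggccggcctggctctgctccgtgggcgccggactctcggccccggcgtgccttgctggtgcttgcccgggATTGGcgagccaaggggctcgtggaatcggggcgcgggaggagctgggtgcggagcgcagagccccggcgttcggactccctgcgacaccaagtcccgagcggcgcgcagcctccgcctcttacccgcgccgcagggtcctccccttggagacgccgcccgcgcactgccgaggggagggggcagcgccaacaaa
Col4a2: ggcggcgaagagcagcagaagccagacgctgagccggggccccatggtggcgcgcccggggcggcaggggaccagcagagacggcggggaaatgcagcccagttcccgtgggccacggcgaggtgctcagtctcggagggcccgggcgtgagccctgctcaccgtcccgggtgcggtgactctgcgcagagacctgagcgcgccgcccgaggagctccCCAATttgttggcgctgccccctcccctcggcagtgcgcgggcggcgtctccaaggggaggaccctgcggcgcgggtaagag
Each window held 1 copy, and 37.4% of the 32851 promoter windows in the same table held at least 1 on either strand. The match is a description of the sequence and was not tied to expression.

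Matrix glycoproteins and small collagens followed the same direction. Of 35 matrix proteoglycan and glycoprotein genes 14 were tested, of which 12 were higher and the other 2 did not pass (median log2 fold change 3.67). Lum was at 444, 544 and 366 CPM in the members against 5.02, 0 and 0.606 CPM (log2 fold change 7.54, SE 0.54, adjusted p = 1.7e-10). Bgn, the proteoglycan biglycan, and Aspn, which encodes asporin, were higher by 5.17 and 5.48 on the log2 scale, and their place among the members differed. All 30 Aspn UMIs lay in Rgs5-positive members and all 58 Lum UMIs in Rgs5-zero members, while Bgn had 11 and 20. Of 5 tested genes on the list of fibrillar and associated collagens (14 listed) 4 were higher, among them the transmembrane collagen Col13a1 (6.11) and the basement membrane associated Col15a1 (6.18), and all 19 and 26 UMIs of these 2 genes were in Rgs5-zero members.

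Genes that fold, trim and crosslink collagen were higher in 8 of 10 tested (22 listed), and the other 2 did not pass. Serpinh1, the collagen chaperone of the endoplasmic reticulum, was at 2468, 2267 and 1972 CPM in the members and at 195, 190 and 129 CPM in the remaining barcodes (log2 fold change 3.61, SE 0.26, adjusted p = 1.8e-10). Pcolce, which enhances cleavage of the procollagen C-propeptide, was higher by 7.03 (SE 0.40, adjusted p = 6e-12). Among proteases and inhibitors 6 of 10 tested (16 listed) were higher. Serpinf1, the secreted serpin PEDF, counted 60 UMIs in the members and 8 in all remaining barcodes, and Ctsk, a collagen-degrading cathepsin, 23 and 3, a ratio of 194 in CPM with a counting interval of 58.7 to 1010.

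Fibroblast and meningeal genes were higher in 27 of 29 tested (50 listed), with a median log2 fold change of 3.99, and Igfbp5, an IGF binding protein, was lower (-1.18, adjusted p = 0.036). Igfbp5 lost its call in 8 of 13 alternatives, among them DESeq2, leaving out any 1 mouse and leaving out the 6 barcodes. Slc6a13, a GABA and taurine transporter of leptomeningeal cells, was at 814, 861 and 509 CPM in the members and at 1.67, 0 and 4.85 CPM in the remaining barcodes, with no overlap (log2 fold change 7.79, SE 0.45, adjusted p = 6e-12). Gjb6 and Gjb2, which encode the gap junction proteins connexin 30 and connexin 26, had 41 and 36 UMIs in the members and 2 and 5 in the 3324 remaining barcodes. For Gjb6 that is a ratio of 520 in CPM, with a counting interval of 135 to 4440. Both genes lie on the minus strand of chromosome 14, with 18.6 kb between them, and all of their member UMIs were in Rgs5-zero barcodes. C1qtnf2, a secreted C1q and TNF related protein, counted 23 UMIs against 2, a ratio of 292 (72.1 to 2550).

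Some of these genes rested on few barcodes. Ptgds, the prostaglandin D2 synthase of leptomeningeal cells, had 98, 104 and 4 UMIs in the members of mice 1, 2 and 3, but 82 of the 98 and 94 of the 104 came from a single barcode in each mouse. It passed the test (log2 fold change 7.05, SE 0.81, adjusted p = 3.7e-07), and mouse 3 lay far below the other mice. Pdgfra, the PDGF receptor of fibroblasts, was at 247, 90.7 and 65.3 CPM against 35.2, 32.2 and 47.9 CPM (adjusted p = 0.035), and it lost that call in 5 of 13 alternative analyses, including those without mouse 1 or mouse 2 and the one with mouse as a block (adjusted p = 0.051).

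Pericyte genes were higher in 13 of 14 tested (30 listed), with a median log2 fold change of 4.69. Kcnj8, the pore of the pericyte potassium channel, was at 271, 45.3 and 444 CPM in the members and at 0.837, 5.85 and 1.21 CPM in the remaining barcodes (log2 fold change 7.05, SE 0.63, adjusted p = 6.9e-09). Higd1b, a mitochondrial protein used as a pericyte marker, was at 222, 90.7 and 614 CPM against 5.02, 10.2 and 1.21 CPM (6.29, SE 0.59, adjusted p = 1.7e-08). Both genes were lowest in mouse 2, the mouse with 5 Rgs5-positive barcodes. Their CPM there also lay above the remaining barcodes. Those values rest on very few of the 22058 UMIs of its members, so mouse 2 says little on the direction. Abcc9, the regulatory subunit that pairs with Kcnj8, had 9, 0 and 33 UMIs in the members against 4, 0 and 4 in the remaining barcodes and did not pass the filter on low counts. Pdgfrb, with 7, 0 and 13 UMIs against 6, 0 and 4, did not pass it either. Kcnj8 and Abcc9 are neighbours on the minus strand of chromosome 6, 16.2 kb apart. The proteoglycan NG2 gene Cspg4 and the receptor gene Notch3 were higher by log2 fold changes of 3.07 and 3.65, on 15 and 13 UMIs in the members. Slc6a20a, an amino acid transporter on the same list, was higher by 7.80, but 34 of its 41 UMIs were in Rgs5-zero members. Zic1, a transcription factor that granule neurons also make, was lower (-0.84, adjusted p = 0.026), and it lost that call in 8 of 13 alternatives, among them leaving out any 1 mouse, the 6 barcodes with endothelial RNA, or shallow barcodes.

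Smooth muscle genes were higher in 7 of 13 tested (19 listed), and the other 6 did not pass. Myl9, a myosin light chain, was at 444, 635 and 248 CPM against 9.21, 10.2 and 4.85 CPM (log2 fold change 5.58, SE 0.45, adjusted p = 1.2e-09), and 50 of its 51 UMIs were in Rgs5-positive members. Acta2, smooth muscle actin, passed more narrowly (2.01, SE 0.59, adjusted p = 0.019): its 8 UMIs in mouse 1 came from 1 barcode, its 10 in mouse 2 from 1 barcode, and mouse 3 had 2. Without mouse 1 or without mouse 2 it no longer passed.

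**Figure D4:**
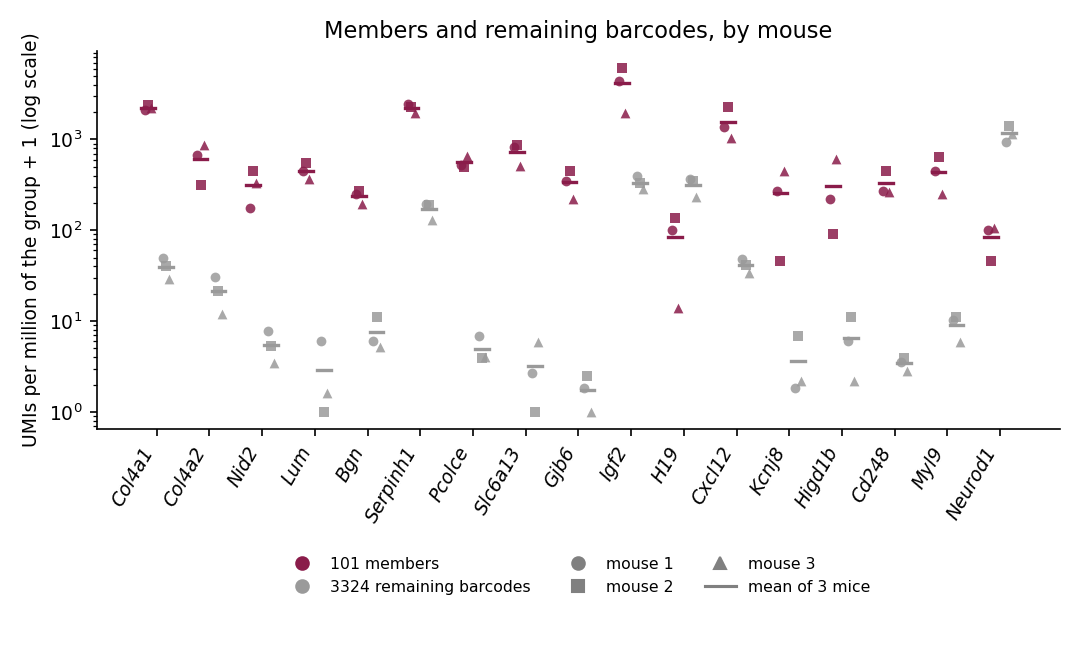
CPM plus 1 on a log axis for 17 genes in the members and in the remaining barcodes, 1 point per mouse, with a line at the mean of 3 mice. From Col4a1 to Myl9 every gene but H19 lies higher in the members of each mouse, Col4a1 at 2097 to 2403 against 27.9 to 48.6 CPM, and H19 and Neurod1 lie lower.

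The receptors of endothelin went in opposite directions. Of the 21 signalling genes tested (42 listed), 11 were higher, 1 was lower and 9 did not pass. Ednra, the endothelin A receptor, was at 173, 90.7 and 209 CPM against 5.02, 4.39 and 1.21 CPM (log2 fold change 5.63, SE 0.56, adjusted p = 4.4e-08), and 22 of its 25 UMIs were in Rgs5-positive members. Ednrb, the endothelin B receptor, was lower: it counted 2 UMIs in the members and 804 in the remaining barcodes, 15.9-fold lower with a counting interval of 4.37 to 131, and it lost its call without mouse 3. Cxcl12, a chemokine that guides CGNPs from the meninges, was at 1382, 2267 and 1032 CPM against 46.9, 40.9 and 32.7 CPM (5.10, SE 0.30, adjusted p = 6e-12).

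Imprinted growth genes went both ways: 5 of 15 tested were higher, 2 lower and 8 did not pass, and the median log2 fold change was -0.08 (19 listed). Igf2, the fetal growth factor, was at 4392, 6120 and 1946 CPM in the members and 393, 327 and 283 CPM in the remaining barcodes (log2 fold change 3.46, SE 0.30, adjusted p = 3.6e-09). H19, a long noncoding RNA gene 72.6 kb from Igf2 on chromosome 7 that shares its enhancers and is expressed from the opposite parental allele, was at 98.7, 136 and 13.1 CPM against 362, 344 and 234 CPM (-2.43, SE 0.49, adjusted p = 0.00084). In UMIs, the members held 462 of Igf2 and 8 of H19, and the remaining barcodes 1161 and 1053. Both genes kept their direction and call in all 13 alternatives. Dlk1 (3.29) and Mest (2.02) were also higher, and Ndn, lower at -1.42, lost its call in 7 of 13 alternatives, among them leaving out the 6 barcodes, where H19 was the only lower gene of the list.

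All 8 tested genes of antigen presentation, complement and interferon (20 listed) were higher, with a median log2 fold change of 2.60, and 7 of 9 tested without the 6 barcodes with endothelial RNA. H2-D1 and H2-K1, which encode class I MHC heavy chains, did not pass without them: their 18 and 20 UMIs in Rgs5-positive members all came from those barcodes, while Rgs5-zero members had 14 and 13. Ifitm3, an interferon-induced membrane protein with close relatives among which reads may be split, was at 1332, 680 and 810 CPM against 47.7, 33.6 and 14.6 CPM (4.84, SE 0.38, adjusted p = 9.2e-10).

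Eed itself was counted in the members at 2, 1 and 4 UMIs, 49.4, 45.3 and 52.3 CPM, against 41.0, 40.9 and 32.7 CPM in the remaining barcodes (log2 fold change 0.35, SE 0.62, adjusted p = 0.76). The difference did not pass on 7 UMIs, and 3'-end counts do not show whether the deleted part of the gene is present. Of 16 tested genes on a list of PRC2 subunits, CDK inhibitors and Hox genes (20 listed), 0 were higher and 8 were lower in the members. None was higher at an unadjusted p under 0.05 (0 genes), nor by DESeq2 (0). Cdkn2a, Hoxa7, Hoxa9, Cdkn1a and Cdkn1c on this list were picked by the study from these samples, so their direction is not independent evidence. Cdkn2a, a CDK inhibitor gene, had 1 UMI in the members and 403 in the remaining barcodes (15.9-fold lower, counting interval 2.84 to 629), and Hoxa7, a homeobox gene, had 3 and 485 (6.38-fold lower, 2.17 to 31.0). Neither passed without mouse 1 (adjusted p = 0.073 and 0.072). Ezh2, the catalytic subunit of PRC2, was lower (log2 fold change -1.14, SE 0.31, adjusted p = 0.011) and Cdkn1a, another CDK inhibitor, at -1.25 (adjusted p = 0.023), but both lost their call whenever a mouse was left out. Hoxa9 (-1.91, adjusted p = 0.039) lost its call in 8 of 13 alternatives. Cdkn1c (-1.03, adjusted p = 0.056) passed in 7 of 13, among them the one with mouse as a block (adjusted p = 0.00078). Of 22 tested cell cycle genes 6 were lower and 0 were higher, also at an unadjusted p under 0.05 (0) and by DESeq2 (0). Without the 6 barcodes with endothelial RNA, 7 PRC2 list genes and 5 cell cycle genes were lower.

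Markers of granule neurons, muscle, blood, myeloid cells and oligodendrocytes were mostly lower in the members. Of 10 granule neuron markers 9 were lower, and 7 without the 6 barcodes with endothelial RNA. All 6 tested skeletal muscle, all 4 tested red cell, 4 of 6 myeloid (3 without the 6 barcodes) and all 4 tested oligodendrocyte markers were lower. The 3 tested Purkinje cell markers did not pass, and of 2 tested GABAergic interneuron markers 1, Pax2, was lower. Summed granule neuron markers ranged from 823 to 1258 CPM in the members and from 3517 to 3964 CPM in the remaining barcodes. Myl1, a muscle myosin light chain, and Pou3f2, Syt1 and Chgb, genes of neurons, had 604, 571, 586 and 567 UMIs in the remaining barcodes and 0 in the members, so that each was at least 7.45-fold lower. Astrocyte and Schwann cell markers were mixed. Gja1, the connexin 43 gene that meningeal fibroblasts also make, was higher (3.51, SE 0.30, adjusted p = 3.6e-09), Slc1a2 was lower and 2 of 4 tested astrocyte markers did not pass. Summed astrocyte markers were at 1184, 1541 and 1267 CPM in the members and at 689, 396 and 1097 CPM in the remaining barcodes. Of the member UMIs of Gja1 and Slc1a3, 102 of 109 and 54 of 57 were in Rgs5-zero barcodes. Of 2 tested Schwann cell markers Pmp22 was higher (3.25) and Ncam1 lower. The part of astrocyte or Schwann cell RNA in the members was not tested.

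Endothelial markers were higher, with 7 of 7 tested higher (15 listed). Their sum was 1925, 1541 and 5917 CPM in the members of mice 1, 2 and 3 and 618, 538 and 301 CPM in the remaining barcodes. Without the 6 barcodes, 3 of 6 tested were still higher (Cdh5, Itm2a and Ramp2) and Cldn5 was lower, at 0 UMIs. Cldn5 is among the genes that chose these 6 barcodes, so its call follows from that choice and nothing is read from it. Of the member UMIs of Itm2a and Ramp2, 88 of 157 and 26 of 57 were in Rgs5-zero barcodes.

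Within the members, Rgs5-positive barcodes were higher in Igfbp7, Gucy1a3, Ets1, Tmsb4x and Cald1, among others, and Rgs5-zero barcodes in Igf2, Igfbp2, Ptn and Slc6a13. The sums were small, so 347 genes could be tested, and 19 (5.48%) were higher and 44 (12.7%) lower in Rgs5-positive members (edgeR, adjusted p under 0.05). With the 6 barcodes with endothelial RNA left out, 180 genes could be tested, and 14 rose and 24 fell, of which 12 and 20 were among the 19 and 44. Leaving out members by UMIs of Itm2a as well gave 8 higher and 8 lower of 93 genes. DESeq2 called 11 higher and 36 lower. With no filter on low counts 41 were higher and 53 lower, of which only 4 and 27 were among the 19 and 44. Without mouse 2, 33 genes were higher, and without mouse 3, 23 were lower. The log2 fold change below is Rgs5-positive minus Rgs5-zero.

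Igfbp7, a secreted IGF binding protein of the vessel wall, was at 2051, 2728 and 2679 CPM in the Rgs5-positive members of mice 1, 2 and 3 and at 0, 63.2 and 0 CPM in the Rgs5-zero members. With 167 UMIs against 1 the ratio was 191, with a counting interval of 33.8 to 7570 (edgeR adjusted p = 2.3e-06). Of the 167 UMIs, 81 remained without the 6 barcodes with endothelial RNA, and Igfbp7 still passed (log2 fold change 6.97, edgeR adjusted p = 5e-05). It is not particular to Rgs5-positive members: without those 6 barcodes, Igfbp7 was lower in the members than in the endothelial barcodes compared below. Gucy1a3, a subunit of the nitric oxide receptor guanylate cyclase, was at 1196, 1605 and 702 CPM against 0, 0 and 33.9 CPM, or 57 UMIs against 1 (adjusted p = 3.4e-05). Neither gene overlapped between the subsets, and both were called in all 14 alternatives.

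Cald1 and Tmsb4x encode proteins that bind actin. Cald1, the actin-binding caldesmon, was at 2649, 4172 and 1594 CPM against 659, 821 and 745 CPM (log2 fold change 1.78, SE 0.37, adjusted p = 0.0022). Tmsb4x, thymosin beta 4, which binds actin monomers, was at 3760, 2567 and 5868 CPM against 1041, 569 and 982 CPM (2.26, SE 0.39, adjusted p = 0.00045), and without the 6 barcodes the difference was 1.56. It lost its call where members with UMIs of Itm2a were left out too (adjusted p = 0.24). Lims1, Uaca, Crip2, Gng11 and the transcription factor gene Ets1 were higher by 2.11 to 3.12 in all 3 mice. Without the 6 barcodes Uaca and Gng11 still passed (edgeR adjusted p = 0.0023 and 0.0076). Lims1, Crip2 and Ets1 were then too thinly counted to be tested, so their dependence on those barcodes is not known. With no filter on low counts, where 11414 genes were tested, Lims1, Uaca, Crip2, Gng11 and Cald1 did not pass, and Gng11 did not pass without mouse 3 either. Of 3 smooth muscle genes tested, Cald1 and Crip1 passed, and without the 6 barcodes 3 of 3 tested passed (Myl9, Crip1 and Cald1). Crip1, a LIM protein, stood at 1880, 5616 and 425 CPM against 486, 442 and 440 CPM, so that mouse 3 overlapped, and it did not pass without mouse 2 or with no filter on low counts.

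Most pericyte genes were too thinly counted for the test, and their UMIs are given instead. Of the 27 pericyte genes with at least 5 UMIs in the members, 9 had 0 UMIs in Rgs5-zero members (33.3%), against 3.39% of all 5656 genes with that many UMIs. Kcnj8 had 11, 1 and 34 UMIs in Rgs5-positive members, from 19 barcodes, and 0 in Rgs5-zero members, so it was at least 17.5-fold higher. Higd1b had 58 UMIs from 20 barcodes against 0, at least 22.1-fold higher. Rgs4, a relative of Rgs5, had 28 against 0, Cox4i2, a subunit of cytochrome c oxidase, 25 against 0, and Cspg4 15 against 0. Abcc9 had 41 against 1 and Pdgfrb 16 against 4. None of these values needs the barcodes with endothelial RNA: 36 of the 46 Kcnj8 UMIs and 44 of the 58 Higd1b UMIs remained without them. Gja4, connexin 37, had 16 UMIs against 0, and 8 of the 16 remained. Cd248, endosialin, was shared, with 22 UMIs in Rgs5-positive and 19 in Rgs5-zero members. Slc6a20a, Tbx18, Anpep and Lamc3 of the same list lay mainly in Rgs5-zero members, with 34, 16, 8 and 8 UMIs there against 7, 4, 1 and 2 in Rgs5-positive members.

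**Figure D5:**
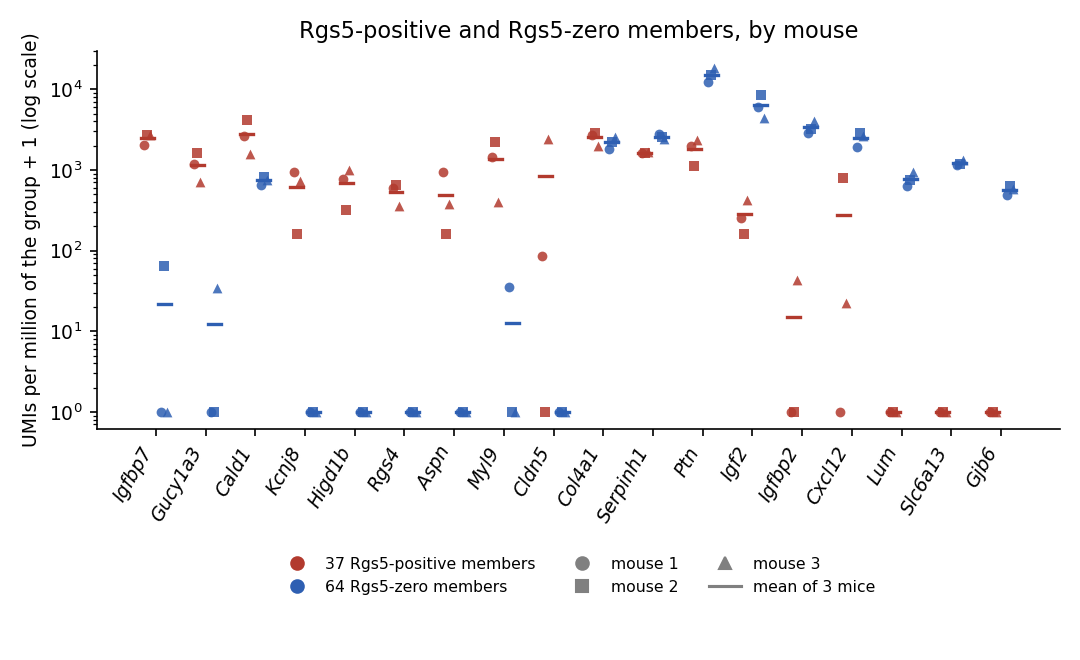
CPM plus 1 on a log axis for 18 genes in Rgs5-positive and Rgs5-zero members, 1 point per mouse, with a line at the mean of 3 mice and points at 1 where no UMI was counted. Igfbp7 to Myl9 lie higher in the Rgs5-positive members of each mouse, Cldn5 is high in mouse 3 alone (2402 CPM), Col4a1 overlaps between the subsets, and Ptn to Gjb6 lie higher in the Rgs5-zero members of each mouse.

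Fibroblast and meningeal genes were lower in Rgs5-positive members in 12 of 14 tested, with a median log2 fold change of -3.33 against 0.03 over all 347 genes, and in 10 of 10 tested without the 6 barcodes. Igf2 was at 256, 160 and 425 CPM in Rgs5-positive and at 6071, 8467 and 4370 CPM in Rgs5-zero members, with no overlap (-4.14, SE 0.43, adjusted p = 4.8e-06). Igfbp2, a binding protein of IGFs, counted 2 UMIs against 254, a ratio of 111 with a counting interval of 30.5 to 924. Of the 34 genes on this list with at least 5 UMIs, 10 had 0 UMIs in Rgs5-positive members (29.4%, against 3.15% of the 5656 genes). Without the 6 barcodes with endothelial RNA it was 13 of 34 (38.2%), against 15.1% of the 5656 genes. Among the 10 were Slc6a13 with 91 UMIs in Rgs5-zero members, Gjb2 with 36 and Pdgfra with 17. Against the limit of 3 UMIs, Slc6a13 was at least 26.6-fold lower in Rgs5-positive members. Edn3, which encodes endothelin 3, had 85 UMIs in Rgs5-zero members and 0 in the others (at least 24.8-fold), Serpinf1 60 and 0 (17.5-fold), Lum 58 and 0 (16.9-fold), and Slc22a6, an organic anion transporter, 50 and 0 (14.6-fold). Slc7a11, the cystine and glutamate exchanger, had 45 and 0 (13.1-fold). The receptor gene Ednra, with 22 UMIs in Rgs5-positive and 3 in Rgs5-zero members, was counted mainly in the other subset. Signalling between the subsets was not tested.

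Of 5 signalling receptor and ligand genes tested 4 were lower in Rgs5-positive members, and 4 of 4 tested without the 6 barcodes. Ptn, the heparin-binding growth factor pleiotrophin, was at 1965, 1123 and 2339 CPM against 12140, 15100 and 18390 CPM (-2.96, SE 0.39, adjusted p = 3.9e-05), and Mdk, its relative midkine, at 342, 963 and 213 CPM against 2324, 2464 and 1524 CPM (-2.50, SE 0.48, adjusted p = 0.00097). Cxcl12 was lower at -4.40 (SE 0.74, adjusted p = 0.0004), with 0, 5 and 1 UMIs against 56, 45 and 78, and DESeq2 did not call it. Apod, apolipoprotein D, was at 85.5, 0 and 957 CPM against 2324, 1453 and 1863 CPM (adjusted p = 0.041). Its 45 UMIs in the Rgs5-positive members of mouse 3 all came from the barcodes with endothelial RNA, and without them 1 of its 46 UMIs remained (adjusted p = 0.00026). It did not pass without mouse 1 or mouse 2, with no filter on low counts or by DESeq2. Itm2a, an integral membrane protein gene also used as an endothelial marker, had 69 UMIs in Rgs5-positive members, of which 2 remained without those barcodes. Its difference from the 88 UMIs of Rgs5-zero members did not pass with them (-0.43, SE 0.51, adjusted p = 0.68) and passed without them (adjusted p = 0.001).

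The immediate early genes Fos, Egr1, Fosb and Jun, singled out after their values were seen, were lower in Rgs5-positive members, while Junb did not pass (0.00, SE 0.56, adjusted p = 1.0). Fos was at 427, 963 and 106 CPM against 1353, 3475 and 1287 CPM (-2.60, SE 0.62, adjusted p = 0.0062). Egr1 was at 85.5, 481 and 128 CPM against 1006, 1264 and 1084 CPM (-2.70, SE 0.53, adjusted p = 0.0012). Neither overlapped between the subsets. Fosb, with 3 UMIs against 38, was 11.1-fold lower (counting interval 3.52 to 56.2), and Jun (-1.84, adjusted p = 0.024) did not pass without mouse 1, without mouse 2 or with no filter on low counts.

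Cycling barcodes were few and lay in both subsets. No cell cycle gene passed the filter on low counts. Summed UMIs of 11 mitotic genes (Mki67, Top2a, Cdk1, Ccnb1, Ccnb2, Ccna2, Cenpa, Cenpf, Birc5, Nusap1 and Ube2c) reached 3 or more in 1, 2 and 3 Rgs5-positive members of mice 1, 2 and 3 and in 5, 0 and 1 Rgs5-zero members. In mouse 2 the 5 Rgs5-positive members held 43 such UMIs, 22 of them in 1 barcode, and the 18 Rgs5-zero members held 5. In mouse 3, 2 of the 3 Rgs5-positive members that reached this limit were barcodes with endothelial RNA, with 7178 and 9079 UMIs in all. They held 30 and 4 of the 53 mitotic UMIs of that subset. The limit of 3 UMIs was not scaled to depth. Mki67, a marker of cycling cells, had 20 UMIs from 6 Rgs5-positive and 8 from 4 Rgs5-zero members, and 15 of the 20 remained without the barcodes with endothelial RNA.

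The members were last compared with 49 endothelial barcodes (23, 16 and 10 in mice 1, 2 and 3, with 73534 UMIs in all), the other cell type of the vessel wall, taken as non-members with at least 3 UMIs from 2 or more of Cldn5, Flt1, Pecam1, Ly6c1, Itm2a and Slco1a4. Of 559 genes tested, without the genes that chose either group, 49 (8.77%) were higher and 39 (6.98%) lower in the members. Red cell markers summed to 49100 CPM in the endothelial barcodes of mouse 2, against 258 and 416 CPM in mice 1 and 3 and 78.4 to 635 CPM in the members, and their part in the comparison was not tested. The counts depended on each mouse and on the 6 barcodes with endothelial RNA: without mouse 1 the counts were 12 and 0 (edgeR, with 19 lower at an unadjusted p under 0.05), without mouse 2 they were 35 and 5, without mouse 3 they were 82 and 75, and without the 6 barcodes 74 and 82 of 573 genes.

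Growth factors and a galectin were higher in the members than in endothelial barcodes. Lgals1, galectin 1, counted 296 UMIs against 1, a ratio of 156 with a counting interval of 27.9 to 6200, and Igf2 462 against 2 (122, 33.6 to 1010). Ptn was at 9204, 11150 and 8529 CPM against 646, 501 and 238 CPM (log2 fold change 4.32, SE 0.38, adjusted p = 4.5e-06). Nupr1, a stress-induced nuclear protein, and Pcolce had 90 and 82 UMIs against 0, so that they were at least 15.9-fold and 14.4-fold higher. Col4a1 was counted in both vessel wall groups and was higher in the members, at 2097, 2403 and 2207 CPM against 542, 723 and 594 CPM (1.91, SE 0.28, adjusted p = 0.00039). It was the only higher gene of 3 tested basement membrane genes, of which the other 2 did not pass (median log2 fold change 0.54). Lgals1, Igf2, Ptn, Nupr1, Pcolce and Col4a1 kept their direction and call in every alternative run for them. Zic1, lower in the members than in the remaining barcodes, was higher than in endothelial barcodes (2.42, SE 0.56, adjusted p = 0.0085), though not without mouse 2.

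Of 5 endothelial markers that did not choose the group and could be tested, Cdh5, Egfl7 and Slco1c1 were lower in the members and the other 2, Esam and Ramp2, did not pass (adjusted p = 0.078 and 0.058). Without the 6 barcodes all 5 were lower. Tek, the angiopoietin receptor, was at 24.7, 0 and 131 CPM against 646, 667 and 356 CPM (-2.85, SE 0.65, adjusted p = 0.0081). Its 11 UMIs all lay in the 6 barcodes with endothelial RNA. Fli1 (-2.86), Id1 (-2.97), Cdh5 (-2.18), Egfl7 (-2.23) and Slco1c1 (-2.44), genes for an ETS factor, a BMP target, VE-cadherin, a secreted vessel factor and a thyroid hormone transporter, lay in the same direction. The 6 barcodes held most of the member UMIs of 4 of these genes: without them 1 of 13 UMIs of Fli1, 3 of 10 of Id1, 3 of 30 of Egfl7 and 0 of 50 of Slco1c1 remained, and 10 of 16 of Cdh5. Each of these 6 genes lost its call without mouse 2, and Egfl7 and Slco1c1 also without mouse 1, where Tek, Fli1, Id1 and Cdh5 had too few UMIs to be tested. Slco1c1 was not called by DESeq2.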

How the data were processed

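Per the labels, 3 Eed cKO cerebella were run by Drop-seq. The deposited tables hold raw UMI counts per gene and barcode, with no normalization by the authors. Submitters' processing notes name STAR and mm10, and the annotation and counter are not given in the sources used here. The tables list 16181 genes in 3481 barcodes, of which 56 exceeded 10% mitochondrial UMIs.

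Sums over barcodes, 1 per mouse and group, were compared in edgeR 4.0.16 (R 4.3.3) by the quasi-likelihood test with filterByExpr and TMM, without the genes of the rule. P-values were Benjamini-Hochberg adjusted across every gene tested, and measure the spread between these 3 mice. The SE was derived from the fold change and its F statistic. The scripts were tested on simulated counts. The members, gene lists and tests were chosen with earlier results of these data known. Genes were named by rule: in each comparison the 10 highest and 6 lowest changes passing the test in all 3 mice, up to 4 of each list, 21 set genes and the 9 rule genes; not every gene so named is reported here. Markers of other cell types, Apod, Itm2a, Ramp2, Cox4i2, Gja4, Rgs4, Tbx18, Anpep, Lamc3, Igfbp5, Ndn, Mki67, Fos, Fosb, Egr1, Jun, Junb, H2-D1 and H2-K1 were named after their values were seen.

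Both sums of a mouse came from the same animal, so mouse pairs them. Deviations of log2(CPM + 20) correlated across genes at 0.119, 0.120 and 0.177 for members and remaining barcodes, -0.0196, -0.0774 and 0.161 for the Rgs5 subsets, and 0.147, 0.0327 and 0.223 for members and endothelial barcodes.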

Additional observations from a re-analysis of the deposited data

How the results depend on the processing

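Alternatives were DESeq2 1.42.0, RLE factors, no filter on low counts, mouse as a replicate block, leaving out each mouse, the study's barcode filters, a 5% mitochondrial limit, membership at 3 or 6 UMIs, Rgs5-positive at 2 UMIs, and leaving out members with 2 or more endothelial UMIs. The last was run with Itm2a, as planned, and without it, an alternative added after seeing the data because Itm2a is also counted in Rgs5-zero members. Of 1226 alternative values of 99 tests of named genes, 1133 stayed on the same side, 81 lost and 8 gained significance, and 4 reversed. Cldn5 moved from 3.06 in members against remaining barcodes to a range of -2.58 to 3.75 leaving out 1 mouse (lowest without mouse 3), -8.48 without members with endothelial UMIs and -8.50 with Itm2a not counted, and Flt1 from 2.74 to -0.42 without members with endothelial UMIs. No Cldn5 UMI remained without these barcodes. Cldn5 and Flt1 are among the genes that chose the members left out, so their reversals under those settings follow from the choice and test nothing. Of the 4 reversals, only that of Cldn5 without mouse 3 does not come from it. The cause of other changes was not tested.

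With mouse as a replicate block, 516 genes were higher and 649 lower in members than in remaining barcodes, 19 and 43 in Rgs5-positive than in Rgs5-zero members, and 51 and 47 in members than in endothelial barcodes, and the call changed for 2 named genes, Pdgfra and Cdkn1c. Leaving out 1 mouse gave 382 to 551 higher and 181 to 311 lower genes against remaining barcodes, 14 to 33 and 23 to 47 between the Rgs5 subsets, and 12 to 82 and 0 to 75 against endothelial barcodes. Without mouse 1, edgeR called 0 genes lower than in endothelial barcodes, with 19 at an unadjusted p under 0.05. Means over 2 mice ranged from 2.75 to 3.11% for members and from 26.8 to 42.4% for Rgs5-positive members. Leaving out members with endothelial UMIs, Itm2a counted, gave 313 and 392 genes against remaining barcodes, 8 and 8 of 93 between the Rgs5 subsets, 31 higher than in endothelial barcodes and a member share of 2.05%. With Itm2a not counted it gave 24 lower between the Rgs5 subsets, and 74 and 82 against endothelial barcodes. DESeq2 called 11 genes higher in Rgs5-positive members. With no filter 41 were, of which only 4 were among the main 19, and 138 were higher than in endothelial barcodes, with 44 of the main 49. The study's filters gave 24 lower in Rgs5-positive members. Between the Rgs5 subsets 347 of 16181 genes passed the filter, and 558 without mouse 2.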
